A study of Mus musculus with 8 samples.

Results

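The 9 genes described here encode interferon-induced GTPases: 5 guanylate-binding proteins (Gbp2, Gbp3, Gbp5, Gbp6 and Gbp7) and 4 immunity-related GTPases (Igtp, Iigp1, Irgm1 and Irgm2). They were chosen by name, with earlier results of these data known, from the 24498 genes of a table of mouse dorsal hippocampus. All 9 passed the filter on low values that left 12681 genes for testing. Polyadenylated RNA was sequenced in 8 libraries from a design that crossed a viral vector with training, with 2 libraries in each of 4 groups. The study's title places it in work on ACSS2, an enzyme that makes acetyl-CoA from acetate, in neuronal histone acetylation and hippocampal memory.

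All mice were male C57BL/6J animals of 10 to 12 weeks, labelled WT or ACSS2-, and all had virus injected into the dorsal hippocampus. Control mice received AAV2/9.CMV.EGFP.polyA, which carries the green fluorescent protein alone. Knockdown mice received AAV2/9.U6.shACSS2.CMV.EGFP, which adds a short hairpin against Acss2 driven by the U6 promoter, a promoter active in most cell types. By its name the control vector carries no hairpin, so the hairpin cassette and the loss of Acss2 cannot be told apart in these groups. Trained mice explored 3 objects in an arena 3 weeks after injection and were killed 30 minutes after training, whereas the other mice were home cage controls. The libraries are called here by the names in the table header: eGFP.254 and eGFP.268 (control, home cage), eGFP.250 and eGFP.266 (control, trained), KD.253 and KD.255 (knockdown, home cage), KD.249 and KD.251 (knockdown, trained). Whether 1 mouse or a pool went into each library is not in the labels, so the spread between libraries, which p-values measure, may be technical.

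Guanylate-binding proteins and immunity-related GTPases are among the genes that interferons induce most strongly. Interferon-gamma acts mainly through promoter motifs called gamma-activated sites, and interferons alpha and beta act mainly through interferon-stimulated response elements. The proteins gather on the vacuoles and membranes of intracellular parasites and bacteria, where the guanylate-binding proteins help to break the vacuole and to engage inflammasomes. Among the immunity-related GTPases, Iigp1 is an effector that loads onto vacuoles, while Irgm1, Irgm2 and Igtp sit on the cell's own membranes and keep the effectors inactive there. Both families are kept at a low level in resting tissue.

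In these data the 9 genes were low in all 4 control libraries, with a summed level between 199 and 265 normalized read counts (read counts divided by 1 size factor per library). The sum was 2796 in KD.253, 1960 in KD.255 and 2975 in KD.249, but 453 in KD.251. Each of the 9 genes was higher in KD.253, KD.255 and KD.249 than in every control library, and 8 of them, all but Gbp5, were also higher in KD.251 than in every control library. For comparison, 4.91% of all tested genes had the first of these orders and 2.28% the second. The ratio of the knockdown mean to the control mean ran from 4.85 for Irgm2 to 19.9 for Iigp1, with a median of 9.23.

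A pair of knockdown libraries was shallow, and this bears on every comparison. Reads assigned to genes came to 272456 for KD.255 and to 1484318 for KD.251, while the remaining 6 had 6537749 to 9863728. Each read therefore stood for 15.6 normalized counts in KD.255, 2.88 in KD.251 and 0.444 to 0.659 elsewhere. The limit that a count of 0 allows, 3 reads, was 46.7 in the first and 8.65 in the second. Acss2, the target of the hairpin, had 58.2, 82.0, 87.4 and 67.5 normalized counts in eGFP.254, eGFP.268, eGFP.250 and eGFP.266. It had 25.0 in KD.253, 15.6 from 1 read in KD.255 and 25.6 in KD.249. In KD.251 it had 57.7 from 20 reads, only just under the lowest control library, so the library labelled KD.251 stood apart both in Acss2 and in the GTPases. The labels give no further way to check its identity, and it is counted with the knockdown libraries by its label alone. For Acss2 the averaged knockdown difference was -1.37 on the log2 scale (SE 0.33, limma adjusted p = 0.333, edgeR adjusted p = 0.0835). The 8 markers of hippocampal neurons, Slc17a7 and Camk2a among them, gave a summed level of 38430 to 56822 in all 8 libraries.

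Gbp5, Gbp7, Gbp3 and Gbp2 lie in this order in a cluster on chromosome 3 (GRCm38, GENCODE M21, all protein coding): Gbp5 at chr3:142493978-142522344, Gbp7 at chr3:142530342-142550149, Gbp3 at chr3:142560026-142573209 and Gbp2 at chr3:142620602-142638008, all on the plus strand. Gbp6 is on the minus strand of a second cluster at chr5:105270702-105293698. Igtp (chr11:58199556-58207591) and Irgm2 (chr11:58199618-58222782) lie on the plus strand and overlap in this annotation. Irgm1 is on the minus strand at chr11:48861968-48871683. Members of both families are close copies of one another. Reads aligned to several places had an entry of their own, with 10.6 to 13.8% of a library's total. So did reads ambiguous between genes, with 0.379 to 0.424%. Such reads were not counted for any gene, so levels of close or overlapping copies can be too low. The split between neighbours is therefore uncertain.

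The promoters of the GTPases are printed because they carry the motifs of the 2 interferon pathways. RefSeq promoter windows (GRCm38.p6, 250 bases before to 50 after the start of transcription) were examined for 7 of the 9 genes. Gbp6 and Iigp1 were not among them, so the motif counts do not cover these genes. The core of the interferon-stimulated response element, which is GAAA, any 2 bases and GAAA again on either strand, was found in all 7 genes, against 3.99% of the 27025 genes with a window and 3.44% of the 32851 windows of that length. Gbp3 had a second window without it. The gamma-activated site, TTCNNNGAA, which reads the same on both strands, was found in 4 of the 7 (Gbp5, Gbp7, Igtp and Irgm2), against 9.55% of genes and 8.30% of windows. Capitals mark the matches to either motif in the bases just before the start, written 5′ to 3′ on the strand of the gene, and response elements that begin with TTTC are read from the other strand. These starts are RefSeq's and differ from the GENCODE gene ends for several genes, so part of a printed stretch can lie inside the GENCODE gene.
Gbp2, chr3:142620553-142620662, plus strand: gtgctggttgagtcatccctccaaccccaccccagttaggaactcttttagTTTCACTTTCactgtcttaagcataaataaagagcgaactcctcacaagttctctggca
Gbp3, chr3:142559934-142560043, plus strand: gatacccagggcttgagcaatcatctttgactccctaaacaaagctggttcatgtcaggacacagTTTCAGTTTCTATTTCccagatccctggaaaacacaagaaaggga
Gbp5, chr3:142496684-142496933, plus strand: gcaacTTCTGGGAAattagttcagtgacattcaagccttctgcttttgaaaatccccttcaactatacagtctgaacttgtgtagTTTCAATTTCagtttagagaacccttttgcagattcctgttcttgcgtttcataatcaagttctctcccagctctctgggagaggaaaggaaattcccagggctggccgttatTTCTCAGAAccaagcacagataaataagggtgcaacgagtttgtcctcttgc
Gbp7, chr3:142530226-142530335, plus strand: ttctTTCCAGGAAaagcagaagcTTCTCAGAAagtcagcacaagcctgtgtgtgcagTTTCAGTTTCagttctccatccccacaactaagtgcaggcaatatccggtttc
Igtp, chr11:58199446-58199555, plus strand: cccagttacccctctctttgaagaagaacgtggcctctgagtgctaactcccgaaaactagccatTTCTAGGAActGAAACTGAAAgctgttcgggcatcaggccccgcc
Irgm1, chr11:48871421-48871530, minus strand: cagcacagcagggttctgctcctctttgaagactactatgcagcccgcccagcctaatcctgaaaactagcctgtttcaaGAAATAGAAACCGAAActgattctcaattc
Irgm2, chr11:58214867-58214976, plus strand: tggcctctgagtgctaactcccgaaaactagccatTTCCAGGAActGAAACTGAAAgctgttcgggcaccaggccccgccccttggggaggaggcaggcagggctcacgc

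In the printed stretches the response element began 59 bases before the start in Gbp2, 53 in Gbp7, 34 in Igtp, 64 in Irgm2 and 165 in Gbp5. Gbp3 held 2 overlapping matches, 45 and 39 bases before the start, and Irgm1 also held 2, at 30 and 24. In Igtp and Irgm2 a gamma-activated site lay directly before the response element, at 45 and 75 bases. These 2 windows aligned over 270 columns with 244 identical bases (90.4%), so their motifs are not independent observations. Gbp5 held gamma-activated sites at 245 and 52 bases, and Gbp7 at 106 and 87. A match describes letters in a window and does not show that a factor binds there.

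**Figure D1:**
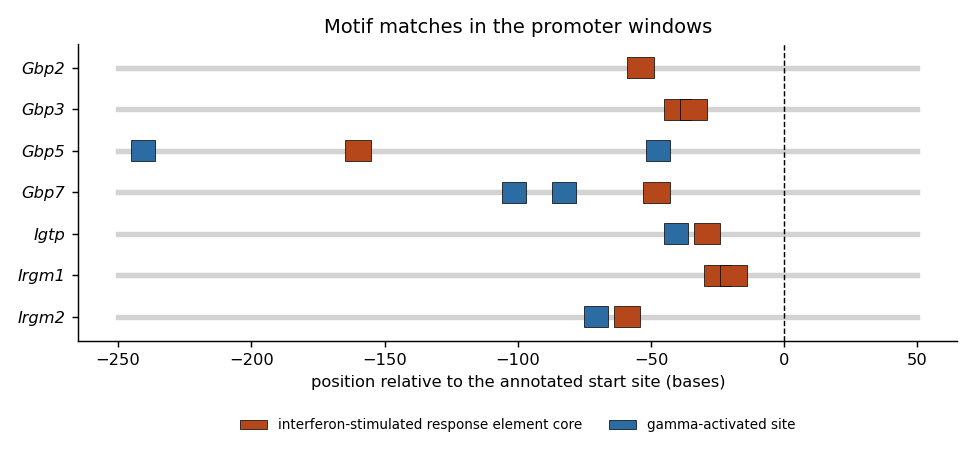
Motif matches in the RefSeq promoter windows of the 7 examined GTPase genes (x axis, position in bases relative to the start of transcription, dashed line). Each grey bar is a window and each box is a match to the response element core or to the gamma-activated site; response elements begin within 65 bases before the start except in Gbp5, where the match begins 165 bases before it.

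Gbp2, which is recruited to vacuoles of intracellular parasites, had 25.6 and 16.0 normalized counts in eGFP.254 and eGFP.268 (home cage), then 20.7 and 28.7 in eGFP.250 and eGFP.266 (trained). It had 302 in KD.253, 218 from 14 reads in KD.255 and 291 in KD.249, and 28.8 from 10 reads in KD.251. The first 3 of these lay far above every control, while KD.251 equalled the highest control to within a read. The knockdown difference averaged over training was 2.74 on the log2(value + 1) scale (SE 0.64), which did not pass limma at an adjusted p of 0.291 and passed edgeR on the recovered reads at an adjusted p of 0.00587.

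Gbp3, from the same chromosome 3 cluster, stood at 42.5, 31.0, 27.9 and 52.6 in eGFP.254, eGFP.268, eGFP.250 and eGFP.266. In the knockdown libraries it had 529 in KD.253, 295 from 19 reads in KD.255, 722 in KD.249 and 83.7 from 29 reads in KD.251. The groups did not overlap. Its averaged difference was 3.03 (SE 0.57, limma adjusted p = 0.155, edgeR adjusted p = 0.00479).

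Gbp5, known for promoting assembly of the NLRP3 inflammasome, gave 14.0, 12.0, 14.0 and 21 in the same order of controls. It had 246 in KD.253, 124 from 8 reads in KD.255, 247 in KD.249 and 14.4 from 5 reads in KD.251. This was the member whose KD.251 value fell inside the control range, and its control and knockdown libraries therefore overlapped. The averaged difference was 2.71 (SE 0.77, limma adjusted p = 0.487, edgeR adjusted p = 0.00751).

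Gbp7, linked to assembly of the phagocyte oxidase on vacuoles, had 64.6, 43.0, 60.5 and 55.0 in the same order of controls. It had 505 in KD.253, 342 from 22 reads in KD.255, 515 in KD.249 and 136 from 47 reads in KD.251. All 4 libraries labelled as knockdown exceeded all 4 controls. Its averaged difference of 2.57 (SE 0.38) came closest to the limma threshold, together with Irgm1, at an adjusted p of 0.0525, and passed edgeR at 0.00203.

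Gbp6, from the chromosome 5 cluster, had the lowest mean over the controls, with 6.98, 1.77, 10.9 and 14.8. It had 150.3 in KD.253, 124 from 8 reads in KD.255, 175 in KD.249 and 23.1 from 8 reads in KD.251. The groups did not overlap, although the controls themselves spread widely. The averaged difference was 3.56 (SE 0.73, limma adjusted p = 0.195, edgeR adjusted p = 0.00544). Its control mean of 8.61 was under the filter of 10, so Gbp6, alone among the 9, was tested only because of its knockdown libraries.

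Iigp1 (chr18:60376027-60392634, plus strand), the effector among the immunity-related GTPases here, had 13.4, 15.1, 8.27 and 23.0 in the controls. It had 421 in KD.253, 295 from 19 reads in KD.255, 441 in KD.249 and 28.8 from 10 reads in KD.251. The 3 high libraries were between 19.8 and 29.6 times the control mean, the widest gap among the members, and KD.251 stood just above the highest control. The averaged difference was 3.74 (SE 0.74, limma adjusted p = 0.195, edgeR adjusted p = 0.00420).

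Igtp, a regulatory member, had 9.89, 12.9, 12.9 and 19.1 in the controls. It had 155 in KD.253, 124 from 8 reads in KD.255, 179 in KD.249 and 34.6 from 12 reads in KD.251. No knockdown library overlapped a control. Its averaged difference was 2.88 (SE 0.49, limma adjusted p = 0.110, edgeR adjusted p = 0.00258).

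Irgm1, a regulator whose loss in mice impairs resistance to intracellular bacteria, had 34.3, 50.1, 42.9 and 29.7 in the controls. It had 355 in KD.253, 373 from 24 reads in KD.255, 280.5 in KD.249 and 80.8 from 28 reads in KD.251. It was the member for which the shallow KD.255 had the highest value of all, and its groups did not overlap. The averaged difference was 2.58 (SE 0.38, limma adjusted p = 0.0525, edgeR adjusted p = 0.00220).

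Irgm2, the third regulator, had 15.7, 16.9, 17.1 and 21 in the controls and the smallest difference of the 9. It had 132 in KD.253, 62.2 from only 4 reads in KD.255, 125 in KD.249 and 23.1 from 8 reads in KD.251. The last value lay just above the highest control, so the separation rests on a difference smaller than the worth of 1 read in that library. The averaged difference was 1.94 (SE 0.50, limma adjusted p = 0.395, edgeR adjusted p = 0.00862).

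**Figure D2:**
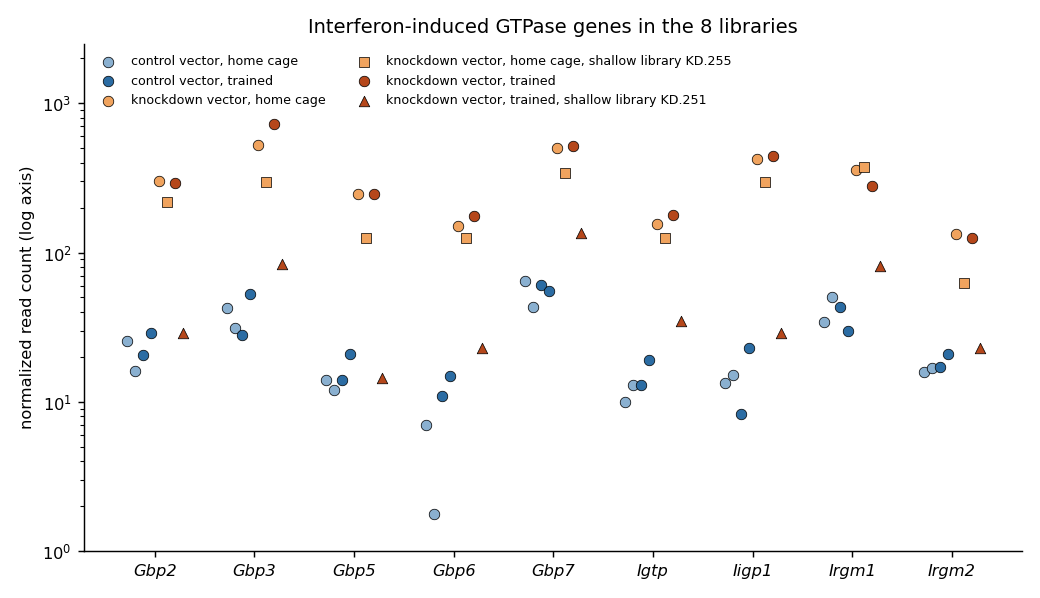
Normalized read counts (log axis) of the 9 GTPase genes, with 1 point per library, coloured by vector and training, and a square for KD.255 and a triangle for KD.251. KD.253, KD.255 and KD.249 sit above every control library for each gene, and KD.251 sits between them and the controls, or inside the control range for Gbp5.

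Across the table, the limma fit of log2 values, with libraries given equal weight, called 0 of the 9 genes in the averaged comparison, in which it called 0.103% of tested genes higher (13 genes). All 9 genes had an unadjusted p under 0.05 by limma and by edgeR. Over the 12681 tested genes, 709 and 996 did so, in either direction. edgeR's quasi-likelihood test on the recovered reads, which gives a shallow library less weight, called all 9 higher, against 0.915% of tested genes (116), with log2 differences of 2.44 to 4.35. DESeq2 also called all 9 higher, against 1.3% of tested genes. The call thus differed between the limma test and the count tests, while the direction was the same in all of them. Scaling moved the median of all tested genes by less than 0.1 on the log2 scale. Because the members were chosen with earlier results of these data known, their counts beside these shares are a description only. Gbp6, with a control mean of 8.61, was also tested only because of its knockdown libraries. Both limits hold for the refits that follow.

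The limma call turned on 1 library. Without KD.251, limma called all 9 genes higher, against 0.733% of tested genes, at adjusted p between 0.000514 (Gbp2, Gbp7 and Irgm1) and 0.0122 (Irgm2). The differences were then 2.51 for Irgm2 to 4.68 for Iigp1. The edgeR call also depended on single libraries: 2 genes (Gbp7 and Irgm1) passed without KD.253, 4 (Gbp3, Gbp7, Igtp and Irgm1) without KD.249 and 8 without eGFP.268, where Irgm2 had an adjusted p of 0.0504. The shares of tested genes called higher in these refits were 0.134%, 0.213% and 0.56%. Without both shallow libraries, limma and edgeR each called all 9, against 1.48% and 1.67% of tested genes.

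The numbers in the library names fall into a lower set, which holds all 4 knockdown libraries with eGFP.250 and eGFP.254, and a higher set of eGFP.266 and eGFP.268 only. The labels do not say what these numbers stand for. Within the lower set the limma differences were 2.03 to 4.13 and 0 of 9 genes passed (adjusted p 0.475 to 0.982), as did 0% of tested genes, while edgeR called all 9, against 0.67%. With the set as a term in the fit, limma called 0 of 9 and 0% of tested genes, and edgeR called 5 (Gbp3, Gbp7, Igtp, Iigp1 and Irgm1), against 0.442%.

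**Figure D3:**
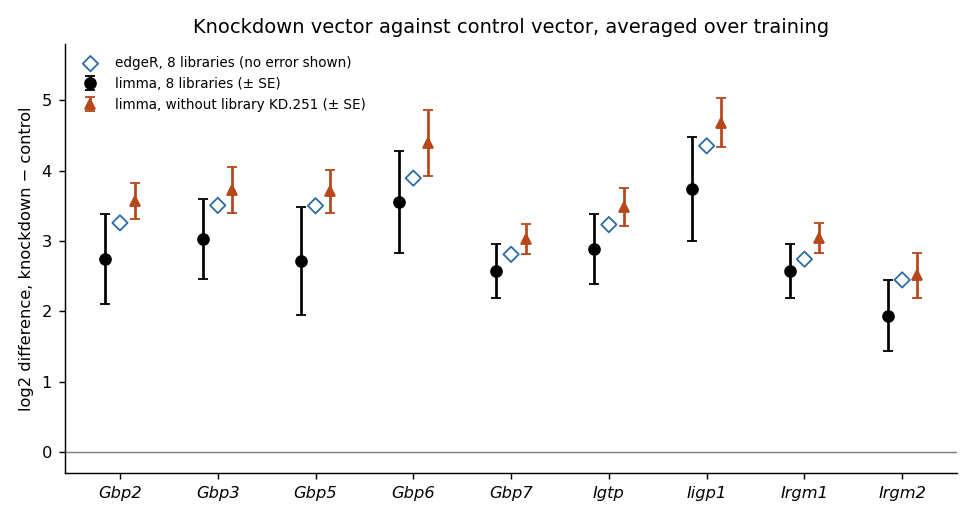
Knockdown minus control difference averaged over training for the 9 genes (y axis, log2), from limma with 8 libraries (circles, ± SE), edgeR with 8 libraries (diamonds, no error shown) and limma without KD.251 (triangles, ± SE). The limma values lie between 1.94 and 3.74 with all libraries and between 2.51 and 4.68 without KD.251, where every SE is smaller.

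In KD.251 itself the excess over the control mean was small. The ratio ran from 0.947 for Gbp5 to 2.68 for Gbp6, with a median of 2.06. The 95% exact counting interval of the read ratio lay above 1 for 5 genes (Gbp3, Gbp6, Gbp7, Igtp and Irgm1). In KD.255, despite its depth, that interval lay above 1 for 8 genes, all but Irgm2. Such intervals cover counting error only and leave out the spread between libraries. The counts of genes for KD.251 and KD.255 are given without their share over all tested genes. They therefore do not show whether the GTPases stood out in either library.

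In home cage mice the knockdown difference was positive for all 9 genes, from 2.41 for Irgm2 (SE 0.72) to 4.87 for Gbp6 (SE 0.88). Limma called 0 of 9, as it called 0% of tested genes. All 9 had an unadjusted limma p under 0.05, as did 571 of the 12681 tested genes in either direction. edgeR called 4 (Gbp6, Gbp7, Igtp and Irgm1), against 0.181% of tested genes, and DESeq2 called 6 against 0.434%. edgeR called 0 without any 1 of eGFP.254, eGFP.268, KD.253 or KD.255, 8 without eGFP.250, 7 without eGFP.266 and 9 without KD.249 or KD.251. Over all tested genes the share called higher moved in the same refits: it was 0.00789% without eGFP.254 or KD.255 and 0% without eGFP.268 or KD.253. It was 0.497% without eGFP.250, 0.41% without eGFP.266, 0.796% without KD.249 and 0.804% without KD.251. Limma without KD.251, a trained library that enters only through the shared spread, called 8 of 9, against 0.205% of tested genes.

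In trained mice the difference was again positive for all 9 genes and lay between 1.46 for Irgm2 (SE 0.72) and 2.95 for Iigp1 (SE 1.02). Limma called 0 of 9, against 0.00789% of tested genes. It gave 6 members an unadjusted p under 0.05, and 299 of the 12681 tested genes in either direction. edgeR also called 0, against 0.0315%. All 9 had an unadjusted edgeR p under 0.05, a count given without its share over all tested genes. DESeq2 called 3 (Gbp7, Igtp and Irgm1) against 0.244%. Without KD.251, which leaves KD.249 as the lone trained knockdown library and assumes that it varies like the other groups, limma called 3 (Gbp3, Gbp7 and Iigp1) against 0.0867%, and edgeR called 9 against 0.741%.

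Training itself was not accompanied by a detectable change in these genes. Among control libraries the trained minus home cage difference ran from -0.21 for Irgm1 to 0.45 for Igtp, except for Gbp6 at 1.54 (SE 0.88, 95% interval -0.44 to 3.52). Limma and edgeR each called 0 of 9 and 0% of tested genes, and DESeq2 called 0 of 9 against 0.0315%. No member had an unadjusted p under 0.05 by limma or edgeR. The 95% intervals of the other 8 genes reached from -2.32 to 2.72, so changes of several fold could not be seen with 2 libraries a group.

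Among knockdown libraries the trained minus home cage differences were all negative, from -1.62 for Iigp1 to -0.65 for Gbp7, and no member passed limma, edgeR or DESeq2, which called 0% of tested genes. Irgm1, at -1.27 (SE 0.51), had an unadjusted limma p of 0.0353 and an adjusted p of 0.802. These values rest on KD.251: without it, the difference was positive for every member except Irgm1. Between the 2 deep knockdown libraries, the ratio of KD.249 (trained) to KD.253 (home cage) was 0.79 for Irgm1 (95% counting interval 0.70 to 0.89) and 1.36 for Gbp3 (1.25 to 1.49), and for the other 7 genes the interval included 1. That comparison is of 2 libraries, not of the conditions.

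Averaged over vectors, the training difference was -0.83 (Iigp1) to 0.23 (Gbp6), and 0 of 9 genes passed limma, edgeR or DESeq2, against 0%, 0% and 0.0631% of tested genes. The difference between the training responses of the 2 vectors was negative for all 9 genes, from -2.63 for Gbp6 (SE 1.24, 95% interval -5.43 to 0.18) to -0.76 for Gbp3 (SE 1.16). It passed in none of the 3 tests (adjusted p of 1 for each gene by limma), which called 0% of tested genes. No member had an unadjusted p under 0.05 in either comparison by limma or edgeR.

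Levels can be compared between genes only per length. Per kilobase of exon, the mean of the 4 control libraries was highest for Gbp3 (11.8 ± 3.46 normalized counts per kilobase, SD, n = 4), followed by Gbp7 (9.93), Gbp2 (9.04), Igtp (6.78), Irgm1 (6.76), Irgm2 (4.79), Iigp1 (2.56), Gbp5 (2.3) and Gbp6 (1.45). Only Irgm2 and Iigp1 were neighbours in that order whose libraries did not overlap. In the knockdown libraries the order was Gbp3 (125 ± 85.0, SD, n = 4), Gbp2 (83.4), Gbp7 (66.7), Igtp (61.0), Iigp1 (50.9), Irgm1 (46.9), Gbp5 (23.8), Irgm2 (23.2) and Gbp6 (19.8). All neighbours in this second order overlapped. Gbp3 therefore headed both orders and Gbp6 closed both.

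**Figure D4:**
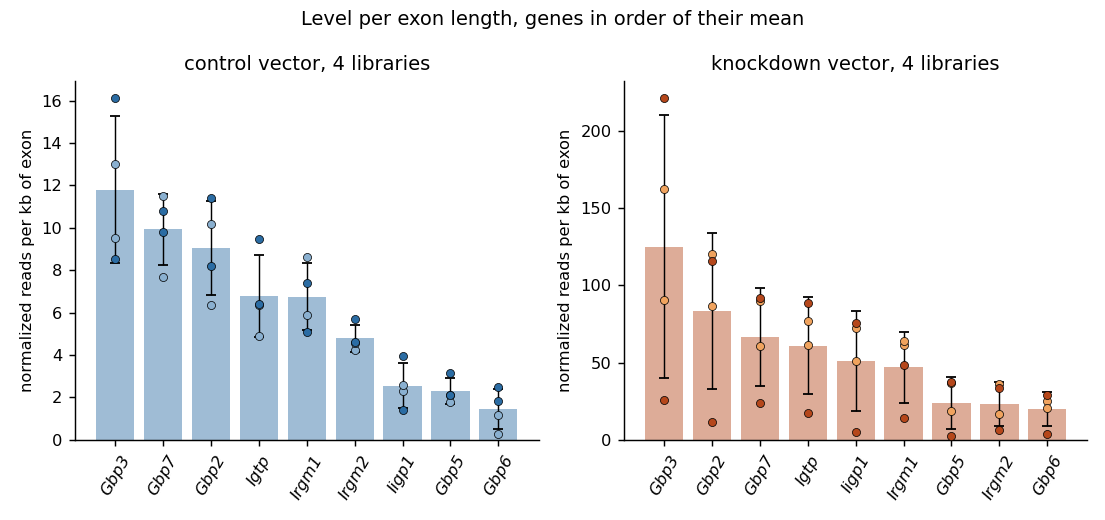
Normalized read counts per kilobase of exon for the 9 genes in order of their mean, in the 4 control libraries (left) and the 4 knockdown libraries (right), on separate linear axes from 0. Bars are means, error bars are SD (n = 4) and points are libraries, lighter for home cage and darker for trained; Gbp3 is first and Gbp6 last on both sides, and the lowest knockdown point of each gene is KD.251.

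The shares of the 2 families in the summed level were compared without a test. The guanylate-binding proteins held 52.2 to 67.7% of the summed normalized counts of the 9 genes in the control libraries and 56.3 to 65.5% in the knockdown libraries, so the ranges overlapped. Their sum was 104 to 172 in controls and 1732 and 1104 in the home cage knockdown libraries KD.253 and KD.255, 1949 in KD.249 and 286 in KD.251. The sum of the 4 immunity-related GTPases was 73.3 to 94.9 in controls and, in the same order, 1064, 855, 1026 and 167. Over the 8 libraries, Pearson's r of log2 values between pairs of members ran from 0.893 (Gbp6 with Irgm1) to 0.991 (Gbp2 with Gbp5), with a median of 0.963 over 36 pairs. These correlations share the same libraries, their depth and the gap between the vectors.

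Among the 10 genes outside the set with profiles most like the mean profile of the 9 members over the 8 libraries, by Pearson's r, were Slfn9 (0.992), Ifitm3 (0.992), Parp14 (0.990), Gm1966 (0.987), Gfap (0.986), Gm12250 (0.985), Dtx3l (0.985), Cd274 (0.985) and Samd9l (0.984). Gm12250, itself a gene of the immunity-related GTPase family, had a mean of 0.89 in controls and 35.9 in knockdown libraries. Slfn9 had a control mean of 4.28 and Gm1966 of 3.43. These and Gm12250 were under the filter of 10 in controls, so they were ranked only because of their knockdown libraries. The r values also hold the gap between the vectors and are a description only. Gfap, the filament gene of astrocytes, had means of 2039 and 4159.

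Of 20 further genes of the GTPase families and the related Mx and very large GTPases, 12 passed the filter. Only Gbp4, Gbp9 and Irgq of these had a control mean of at least 10; the other 9 passed only through the knockdown libraries, where they were high, so counts over the 12 do not describe the family. edgeR called 10 higher and limma called 0. The differences were 4.48 for F830016B08Rik (SE 0.90, limma adjusted p = 0.195), 4.15 for Gbp10 (SE 1.04) and 3.87 for Gm4951 (SE 0.86). The other 7 that edgeR called were Gm12250 (3.61), Mx1 (3.50), Gm4841 (3.19), Mx2 (2.84), Tgtp2 (2.33), Gbp4 (2.26) and Gbp9 (2.13), where Mx1 and Mx2 encode antiviral dynamin-like GTPases. Tgtp1 (1.23, SE 1.17) and Irgq (0.12, SE 0.17) passed neither test. Irgq, a divergent family member, had 314 to 368 normalized counts in controls. Gbp2b, Irgc1, 9930111J21Rik2 and Gvin1 were listed at 0 in all libraries.

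At the top of the pathway, the interferon genes that were examined gave almost no reads, and other interferon genes were not examined. Ifng had 1 read in KD.251 and Ifnb1 had 1 read in KD.249, and each had 0 in the other 7 libraries. Ifna2, Ifna4, Ifnl2 and Ifnl3 had 0 reads in all libraries. The 4 receptor genes passed the filter and 0 of the 4 were called by limma, edgeR or DESeq2 (1 at an unadjusted p under 0.05 by limma, 1 by edgeR), with Ifngr1 at 0.50 (SE 0.20), Ifngr2 at 0.22 and Ifnar1 at 0.07.

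Of 15 signal transducers and transcription factors, 13 were tested, with a median difference of 0.55, and limma called 1. Irf7, a factor of the type I interferon loop that is itself induced by interferon, was 3.96 higher (SE 0.48, limma adjusted p = 0.0210). edgeR called it and also Nlrc5 (2.81), the activator of MHC class I genes, and Irf9 (1.66).

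Of 8 inhibitors of the signal, 5 were tested, and edgeR called Usp18, the protease that removes ISG15 and blocks the type I receptor, at 3.86 (SE 0.61, limma adjusted p = 0.0761). Usp18 was tested only because of its knockdown levels, as were Irf7 and Nlrc5, since their control means were under 10. The phosphatase genes Ptpn6 (1.18, SE 0.44) and Ptpn1 (0.39, SE 0.16) passed neither limma nor edgeR.

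Genes whose products act with the GTPases were measured too. Of 12 genes of the autophagy conjugation system, which delivers the GTPases to vacuoles, 0 passed limma, edgeR or DESeq2 (2 at an unadjusted limma p under 0.05, 0 by edgeR), and their median difference was -0.19. The differences farthest from 0 were those of Atg7 (-0.51, SE 0.24), Map1lc3a (-0.43) and Gabarapl2 (-0.32). Of 8 inflammasome genes 4 were tested and 0 passed in these tests (1 at an unadjusted limma p under 0.05, 2 by edgeR), with Gsdmd at 1.23 (SE 0.50), Casp1 at 0.31 and Il18 at 0.14. All 4 averaged differences were positive, but in home cage mice 2 were positive and 2 negative, with a median of -0.08. The summed level of the 8 genes was 165 to 179 in the knockdown libraries, KD.251 included, against 111 to 139 in controls. That sum rested on only 11 reads in KD.255 and 58 in KD.251. Gsdmd and Casp1 had a control mean under 10 and passed the filter only through the knockdown libraries. Some guanylate-binding proteins carry prenyl lipid anchors. Of 6 genes for enzymes that add such anchors or process prenylated proteins, 0 passed, and 0 had an unadjusted p under 0.05 by limma or edgeR. Pggt1b stood at 0.50 (SE 0.25), Zmpste24 at 0.28 and Icmt at -0.22. Among 9 atlastin, dynamin and mitofusin genes, large GTPases outside the interferon response, the median was -0.07 and edgeR called 1, Dnm3, lower at -0.87 (SE 0.18, limma adjusted p = 0.201, edgeR adjusted p = 0.0352). Dnm2 (0.30) and Dnm1 (-0.22) passed neither test.

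Other interferon-induced groups were set beside the GTPases. Of 5 Ifit genes, which encode RNA-binding antiviral proteins, 4 passed limma: Ifit1 at 4.34 (SE 0.54, adjusted p = 0.0210), Ifit3 at 4.21 (SE 0.40), Ifit3b at 3.90 (SE 0.48) and Ifit2 at 2.85 (SE 0.38), while Ifit1bl1 stood at -1.02 (SE 0.90). Of 9 genes of MHC class I presentation, limma called H2-D1 (2.25, SE 0.28, adjusted p = 0.0210), edgeR called 6 and DESeq2 called 7, with Psmb9 at 2.29 and Psmb8 at 2.27, both of which had a control mean under 10, as did Tap1. In KD.251 the summed level of the Ifit genes was 701, against 113 to 199 in controls, and that of the presentation genes was 1004 against 470.1 to 760.1. In that library both of these sums lay above every control, as did that of the GTPases. Whether the GTPases differ from these groups was not tested.

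**Figure D5:**
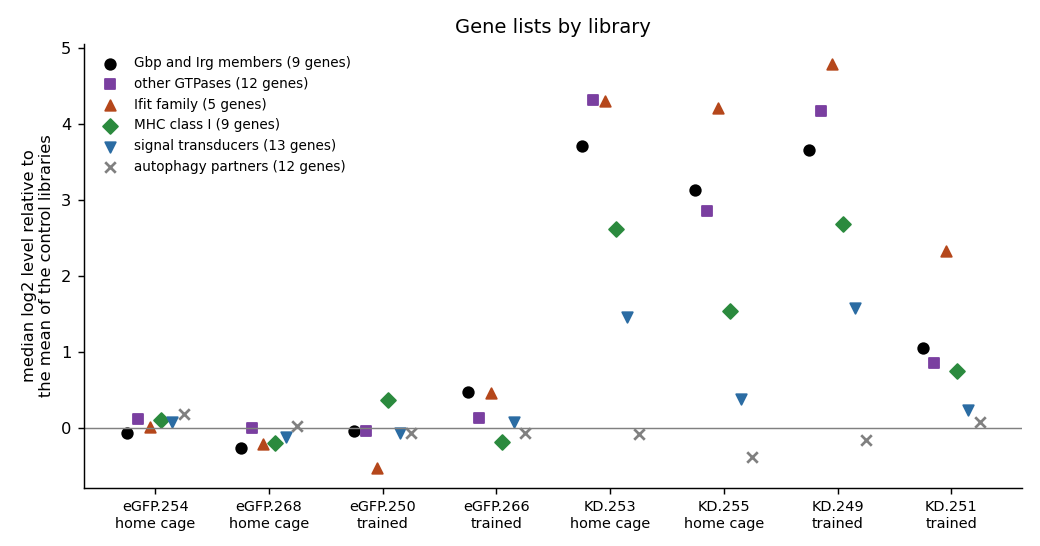
Median log2 level of 6 gene lists in each library, relative to the mean of the 4 control libraries (y axis), with the number of tested genes in the key. The GTPases, the further family members, the Ifit genes and the presentation genes are high in KD.253, KD.255 and KD.249 and lower in KD.251, while the autophagy list lies between -0.38 and 0.19 throughout. Control means were under 10 for 9 of the 12 further family members, 3 of the 9 presentation genes and 1 of the 9 GTPases. These genes passed the filter only through the knockdown libraries, so the filter favoured high knockdown medians for these lists.

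Marker lists of other cell types were measured in the same libraries. All 10 microglial markers had positive averaged differences, with a median of 0.77. edgeR called C1qa, a complement gene, at 1.54 (SE 0.29, limma adjusted p = 0.148, edgeR adjusted p = 0.00650), and Trem2 stood at 1.1 and Aif1 at 0.92. Limma called 0 of the 10 and DESeq2 called 3, C1qa among them, and 8 had an unadjusted p under 0.05 by limma and 9 by edgeR. The summed microglial level was 1000 to 1190 in controls and 1880 to 2019 in KD.253, KD.255 and KD.249, but 1385 in KD.251, so it too was lowest in KD.251 among the knockdown libraries. In bulk tissue, a change in the number of cells of a type and a change in RNA per cell cannot be told apart.

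None of the 10 T and NK cell markers in the table passed the filter. Their summed level was 4.07 to 9.82 in controls, 40.9 from 62 reads in KD.253, 77.8 from 5 reads in KD.255 and 54.3 from 106 reads in KD.249. In KD.251 it was 8.65 from 3 reads, inside the control range. Cd3e, a defining marker, had 11 reads in KD.253 and 5 in KD.249, 2 in eGFP.250 and 0 in the other 5 libraries. Cd8a had 3, 1 and 17 reads in KD.253, KD.255 and KD.249 and 0 in every control. For 8 blood monocyte and neutrophil markers, the sum was 1.55 to 2.91 in controls, 10.5 in KD.253, 13.3 in KD.249 and 0 in both shallow libraries, and S100a8, Ly6g and Fcnb were at 0 in all libraries.

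Of the remaining lists, all but choroid plexus lay near 0. The median difference was -0.03 for astrocytes, although Gfap stood at 0.96, -0.02 for endothelial cells, 0.20 for oligodendrocytes and -0.22 for neurons, and limma and edgeR called 0 genes of these lists, with 3 at an unadjusted p under 0.05 by each, while DESeq2 called 1, Gfap, higher. Choroid plexus markers, whose sum ranged from 230 to 59590 between single control libraries, had a median of -1.79, with 0 of 6 called by limma, edgeR or DESeq2, although all 6 had an unadjusted edgeR p under 0.05 (0 by limma). The part of microglial, T cell, blood cell or choroid plexus content in the GTPase differences was not tested.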

How the data were processed

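The authors deposited 1 table of normalized signal for 24503 entries, which are read counts divided by a size factor per library. The values came out as whole reads in 100% of cases (tolerance 1e-06), so reads were recovered. The 5 entries that name no gene were left out. The submitters' processing notes list bcl2fastq 02.14.01.07, STAR 2.3.0, HTSeq 0.6.1, DESeq, bedtools and the mm10 build. For the annotation and strand setting nothing is stated there.

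The main test was limma 3.58.1 (R 4.3.3) with an intensity trend on log2(normalized value + 1) for 12681 genes with a mean of at least 10, with Benjamini-Hochberg adjusted p under 0.05 over all of them. Averaged differences came from an additive model of vector and training, and the others from 4 group means. edgeR 4.0.16 (quasi-likelihood) and DESeq2 1.42.0 were run on the recovered reads as alternatives. The scripts were run on simulated counts with known changes. A required recovery was set there for edgeR and DESeq2 but not for limma. The alternatives also covered the pseudocount, filter, scaling and each library left out. Alternatives restricted to the lower library numbers and the edgeR refits were added after seeing the data.

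All 9 members are named. From each list, the genes that passed and up to 3 others with the largest absolute difference are named, as are those of the 10 most similar profiles, except for items that are not reported here. Cd3e, Cd8a, Ifng and Ifnb1 were named after their values were seen, as were the interferon genes at 0. The members and lists were chosen with earlier results of these data known.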

Additional observations from a re-analysis of the deposited data

Results flagged for a closer look

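Among the 4 knockdown libraries, which span both training states, KD.251 stood apart on the log2 scale for 3 of the 9 genes. The gap between its value and the nearest other library, divided by the whole range, was 0.860 for Gbp2, 0.831 for Gbp6 and 0.852 for Iigp1, above the 95% critical value of 0.829 for 4 samples. Chance flags about 1 in 20 groups, and 18 groups were examined. The 3 genes share these libraries. KD.251 is a shallow library with 10 reads for Gbp2, 8 for Gbp6 and 10 for Iigp1, and its Acss2 level was 57.7. The part of either in these gaps was not tested.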

How the results depend on the processing

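No paired analysis was possible because the columns carry none of the labels' replicate numbers. In the averaged knockdown comparison, limma called 0 members and called 2 with a pseudocount of 5, a mean filter of 50 or TMM scaling, 9 without both shallow libraries, and 0 to 9 with single libraries left out. edgeR and DESeq2 each called 9. The edgeR count was 2 to 9 with single libraries left out and 5 with the library set as a term. In home cage mice, limma called 0, edgeR 4 and DESeq2 6, and limma called 0 to 8 with single libraries left out and 9 without both shallow libraries. The edgeR count there was 0 to 9 with single libraries left out, 9 without both shallow libraries, and 0 with the set as a term. In trained mice, limma called 0 and DESeq2 3, and limma called 0 to 3 with single libraries left out and 9 without both shallow libraries. The edgeR count there was 0 to 9 with single libraries left out, 9 without both shallow libraries and 5 within the lower numbers. Leaving out single libraries, the knockdown difference kept its direction except for Gbp5 in trained mice (-0.24 to 3.77, negative without KD.249). The share of all tested genes called higher moved with the setting too, from 0% to 1.67% in the averaged refits described earlier. Member counts in this paragraph that have no such share in the Results cannot be set against all tested genes.

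Training differences, none of which passed, changed sign in several settings, and the cause was not tested. With a pseudocount of 5, Gbp6 was -0.010 averaged over vectors and Iigp1 was 0.0042 in controls. Averaged over vectors, edgeR gave 0.023 for Gbp3 and 0.034 for Igtp, and DESeq2 gave 0.041 and 0.045, and in controls Iigp1 was 0.14 by edgeR and 0.13 by DESeq2. Without both shallow libraries the averaged values were 0.15 (Gbp2), 0.20 (Gbp3), 0.26 (Gbp5), 0.095 (Gbp7), 0.37 (Igtp), 0.0033 (Iigp1) and 0.11 (Irgm2). In knockdown mice they were 0.45 (Gbp3), 0.0080 (Gbp5), 0.22 (Gbp6), 0.028 (Gbp7), 0.21 (Igtp) and 0.067 (Iigp1), and the differences between responses were 0.37 (Gbp3) and 0.10 (Iigp1). Within the lower numbers, Gbp6 was -0.53 averaged, and controls gave -0.29 (Gbp2), -0.59 (Gbp3), -0.092 (Gbp7) and 0.32 (Irgm1). With single libraries left out, training in controls ranged from -0.067 to 0.58 (Gbp2), -0.37 to 0.52 (Gbp3), -0.16 to 0.41 (Gbp7), -0.71 to 0.66 (Iigp1) and -0.48 to 0.055 (Irgm1). In knockdown mice it ranged from -3.11 to 0.18 (Gbp2), -2.23 to 0.87 (Gbp3), -3.51 to 0.50 (Gbp5), -2.52 to 0.35 (Gbp6), -1.61 to 0.31 (Gbp7), -1.97 to 0.37 (Igtp), -3.57 to 0.32 (Iigp1) and -1.93 to 0.45 (Irgm2). Averaged, it ranged from -1.09 to 0.23 (Gbp2), -0.84 to 0.39 (Gbp3), -1.18 to 0.43 (Gbp5), -0.34 to 1.1 (Gbp6), -0.57 to 0.20 (Gbp7), -0.52 to 0.41 (Igtp), -1.44 to 0.11 (Iigp1) and -0.65 to 0.31 (Irgm2). The difference between responses ranged from -2.31 to 0.79 (Gbp3), -3.89 to 0.11 (Gbp5), -1.74 to 0.18 (Gbp7), -3.54 to 0.35 (Iigp1) and -2.14 to 0.25 (Irgm2). Depth limits KD.255 and KD.251, where most members rest on under 30 reads.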
